A study of Mus musculus with 8 samples.

Results

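Ngp, Camp, Ltf, Lcn2, Chil3, Cd177, Mmp8, Mmp9, S100a8 and S100a9 are 10 genes that a neutrophil precursor switches on late in its maturation, and they were chosen by name, as 10 of the 52784 genes in the deposited count table. All 10 were counted in all 8 libraries, the lowest value being 261 counts, so none was lost to a filter on low values. In both sorted cell types their level was highest after transplantation of maternal donor cells, where they held 16.0% of all counts of the maternal library and 21.4% of the recipient library. In recipient cells all 10 were lower by at least 4-fold when maternal dendritic cells (DC) had been depleted before transplantation of paternal donor cells, against 6.91% of genes tested, although Camp, at 4.06-fold, was under 4-fold with 3 other scalings. In maternal cells the same comparison split them, with 3 of the 10 at least 4-fold higher (24.9% of genes tested), Camp by 52.4-fold, and 2 lower (28.2%), Mmp9 by 53.8-fold, so that these counts lay near the shares over all genes.

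RNA was sequenced from trafficked maternal cells and from recipient (fetal) cells that had been isolated from the mononuclear cells of whole-body harvests of F1 pups aged 1 week, pooled over the pups of a group. The pools differed in number of pups, the uninjected pool being the largest and the DC control pIUT and DC-depleted pIUT pools being equal. The dams were CD11c-DTR mice on the C57BL/6 (B6) background, in which the Itgax (CD11c) promoter drives a diphtheria toxin (DT) receptor, and the males were BALB/c. In-utero transplantation (IUT) was an injection of 5000000 bone marrow mononuclear cells into each fetus on embryonic day 14, from B6 (CD45.1) donors in mIUT and from BALB/c donors in pIUT. The DC-depleted group came from dams given 5 ng/g DT on embryonic day 13, whereas dams of the DC control mIUT and DC control pIUT groups received saline. Uninjected pups were offspring of DT-treated or saline-treated dams with no IUT, and how they divide between these dams is not stated in the sources used here. Maternal cells were sorted with an H2K-b antibody and recipient cells with an H2K-d antibody. F1 cells carry both haplotypes, B6 donor cells share H2K-b with the dam and BALB/c donor cells share H2K-d with the recipient. Donor cells among the sorted cells cannot therefore be told apart from the named cell type in these libraries. The H2K-b antibody also binds recipient cells, which the study's flow cytometry identified as positive for both H2K-b and H2K-d. Any recipient cells in the maternal libraries cannot be told apart from maternal cells either. Each of the 8 groups was 1 pooled library with no replicate, so every fold change below compares a pair of libraries and not a pair of conditions, and no p value was computed.

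Neutrophils build their granules in sequence. Promyelocytes make the primary (azurophilic) granules that hold myeloperoxidase and serine proteases, myelocytes and metamyelocytes make the secondary granules with lactoferrin and cathelicidin, and band cells make the gelatinase granules. Transcription of the secondary granule proteins depends on the C/EBP family, C/EBPε above all. S100a8 and S100a9 form calprotectin, a calcium- and zinc-binding complex that is the most abundant protein of the neutrophil cytosol and is also made by monocytes. In the bone marrow of mice these transcripts mark the path from myelocyte to mature neutrophil. The libraries were made from mononuclear cells, a preparation that leaves most mature granulocytes behind.

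The libraries held between 38543457 and 47965130 counts, of which the 10 genes took between 114393 and 8900079. The recipient uninjected library lacked 359 of 3776 genes (9.51%) that every other library held at 10 CPM or more (CPM, counts per 1000000 counts after edgeR's TMM scaling), lacking meaning under 1 CPM. The maternal mIUT library lacked 176 of 3622 (4.86%), and the other 6 libraries lacked at most 1.26%. These 2 libraries stand apart. Comparisons that rest on either are named as such, and those that use neither are recipient pIUT over mIUT, DC-depleted pIUT over pIUT in both cell types, pIUT and DC-depleted pIUT over uninjected in maternal cells, and recipient over maternal cells after pIUT and after DC-depleted pIUT. In bulk RNA, fewer cells of a type and less RNA per cell cannot be told apart, and this holds for all levels below.

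The genes lie on 4 chromosomes (GRCm39 with GENCODE positions). Ngp (chr9:110248815-110252086, + strand), Camp (chr9:109676442-109678685, − strand), Ltf (chr9:110848339-110871835, +) and Mmp8 (chr9:7558457-7568487, +) are on chromosome 9. Camp and Ngp, which both encode proteins of the cathelicidin family, are 570.129 kb apart with 8 protein-coding genes between them. S100a8 (chr3:90567118-90578128, +) and S100a9 (chr3:90599931-90603071, −) are 21.802 kb apart on chromosome 3 with 0 protein-coding genes between them, and Chil3 (chr3:106054870-106074880, −) is on the same chromosome. Lcn2 (chr2:32274645-32278264, −) and Mmp9 (chr2:164780439-164797771, +) are on chromosome 2, and Cd177 (chr7:24443408-24459747, −) is on chromosome 7. Reads of Chil3 can also fit near-identical chitinase-like genes such as Chil4, and its counts are uncertain to that extent. Mmp8 overlaps an antisense RNA gene, Gm31751, and without known strand its reads cannot be told apart from those of that gene.

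The promoters of 5 of the genes are shown because the results turn on them: Ngp and Camp are of one family with a ratio that differed between libraries, S100a8 and S100a9 are a pair with a ratio between 0.878 and 1.62, and Mmp8 was lower and Camp higher in maternal cells after DC-depleted pIUT than after pIUT. The sequences are from RefSeq (table build GRCm38.p6) and were placed on GRCm39 by an exact match. The S100a8 window lies inside the GENCODE span of that gene given above. Each is the 250 bases before the RefSeq gene start, 5′ to 3′ on the strand of the gene, and capitals mark matches on either strand to TTNNGNAA (C/EBP), GAGGAA (PU.1, the product of Spi1) and TATAAA (the TATA box) that end before the start.
Ngp, chr9:110248626-110248875, + strand: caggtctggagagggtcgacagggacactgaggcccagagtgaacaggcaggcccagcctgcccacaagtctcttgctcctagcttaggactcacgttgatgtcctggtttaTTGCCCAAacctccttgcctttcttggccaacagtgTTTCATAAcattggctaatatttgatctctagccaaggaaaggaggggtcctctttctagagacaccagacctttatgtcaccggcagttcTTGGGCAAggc
Camp, chr9:109678525-109678774, − strand: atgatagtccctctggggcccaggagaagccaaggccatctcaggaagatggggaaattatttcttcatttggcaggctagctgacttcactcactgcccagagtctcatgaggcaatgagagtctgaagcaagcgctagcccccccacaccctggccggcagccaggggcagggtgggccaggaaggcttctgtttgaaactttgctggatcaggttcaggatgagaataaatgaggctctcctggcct
S100a8, chr3:90576128-90576377, + strand: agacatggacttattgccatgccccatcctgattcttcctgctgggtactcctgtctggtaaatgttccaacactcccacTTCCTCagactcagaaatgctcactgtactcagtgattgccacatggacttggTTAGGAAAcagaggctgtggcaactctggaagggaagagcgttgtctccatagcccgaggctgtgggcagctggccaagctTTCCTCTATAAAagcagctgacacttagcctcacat
S100a9, chr3:90603029-90603278, − strand: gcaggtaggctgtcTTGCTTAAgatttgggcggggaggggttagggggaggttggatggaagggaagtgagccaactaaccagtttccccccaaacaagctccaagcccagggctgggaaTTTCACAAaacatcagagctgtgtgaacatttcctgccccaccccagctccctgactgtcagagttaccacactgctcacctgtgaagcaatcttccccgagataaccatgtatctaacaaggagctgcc
Mmp8, chr9:7558180-7558429, + strand: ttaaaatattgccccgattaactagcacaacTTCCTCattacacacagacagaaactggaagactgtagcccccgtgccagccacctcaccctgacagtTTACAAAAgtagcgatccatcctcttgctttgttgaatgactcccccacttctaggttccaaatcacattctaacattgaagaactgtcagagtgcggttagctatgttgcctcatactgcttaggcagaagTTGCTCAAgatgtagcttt
A match is a description of letters only. In windows of 250 bases before to 50 after the start, TTNNGNAA was found in 8 of the 9 genes with an entry in the table, the exception being Camp, against 40.7% of 32851 promoters. GAGGAA was found in 5 of the 9 (Lcn2, S100a8, Cd177, Mmp8 and Ltf) against 28.3%. TATAAA was found in 5 of the 9 (S100a8, S100a9, Chil3, Cd177 and Mmp8) against 13.6%. It lay wholly before the start only in S100a8 and Cd177 (−40 to −35). In S100a9 (1 to 6), Chil3 and Mmp8 (both −3 to 3) it lay at or across the start. In the S100a8 promoter the TATAAA at −30 to −25 follows directly on a GAGGAA match at −36 to −31, and the Ngp promoter holds TTNNGNAA at −138, −102 and −11.

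**Figure D1:**
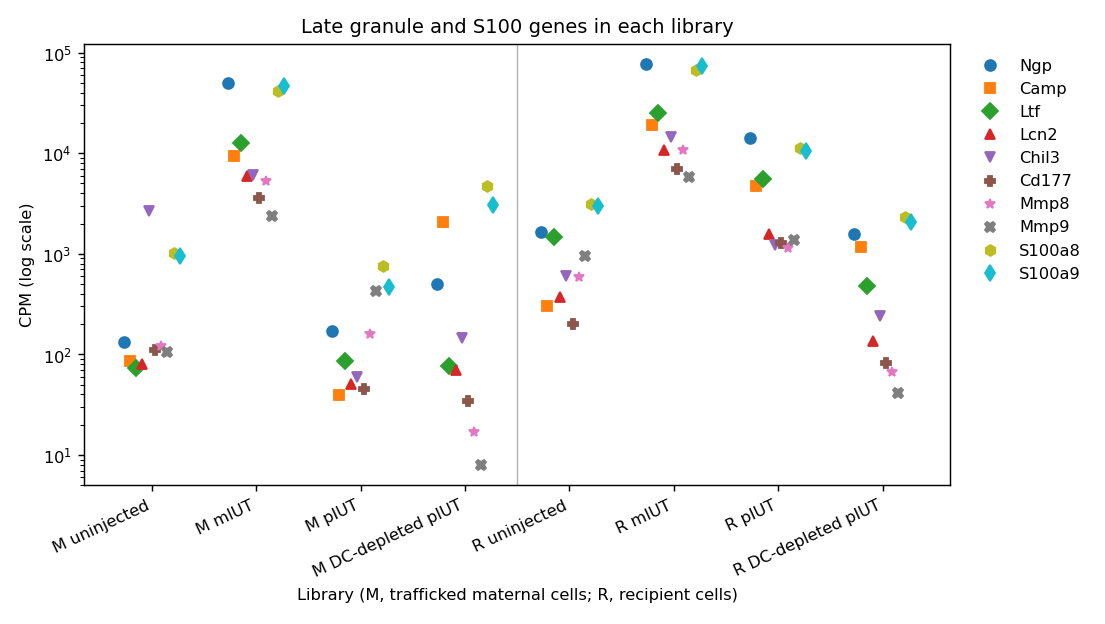
Level of the 10 genes in each library (CPM, log axis), with 1 point for each gene and library. The mIUT libraries of both cell types stand highest for all 10 genes.

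Ngp encodes neutrophilic granule protein, a cathelicidin-like protein of the secondary granule and its highest level was 582 times its lowest. In maternal cells its level was 132 CPM in the uninjected library, 50139 CPM after mIUT, 171 CPM after pIUT and 499.5 CPM after DC-depleted pIUT. In recipient cells it was 1665, 76912, 14217 and 1567 CPM in the same order. Ngp was the gene with the most counts in both mIUT libraries and ranked 2 in the recipient pIUT library, whereas it ranked 1230 in the maternal uninjected library.

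Camp encodes cathelicidin, the precursor of an antimicrobial peptide. Maternal cells held 86.0 CPM when uninjected, 9368 CPM after mIUT, 39.6 CPM after pIUT and 2077 CPM after DC-depleted pIUT. Recipient cells held 306, 18886, 4771 and 1176 CPM. Camp was the one secondary granule transcript whose maternal level after DC-depleted pIUT was above its recipient level in the same group.

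Ltf encodes lactoferrin, the iron-binding protein that defines the secondary granule. Its maternal levels were 72.9 CPM (uninjected), 12683 CPM (mIUT), 85.2 CPM (pIUT) and 76.9 CPM (DC-depleted pIUT), and its recipient levels were 1486, 25183, 5558 and 484 CPM. Outside mIUT the 3 maternal libraries thus lay close together and below every recipient library. Lcn2 encodes lipocalin 2, which binds bacterial siderophores. It was at 79.6, 5991, 50.3 and 70.0 CPM in maternal cells and at 373, 10786, 1557 and 135 CPM in recipient cells, so that it too was low in the 3 maternal libraries other than mIUT.

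Chil3 (Ym1) encodes a chitinase-like secreted protein that macrophages also make. It was the exception in uninjected maternal cells, with 2694 CPM, more than in any recipient library but mIUT. It was at 6006 CPM after mIUT, 60.2 CPM after pIUT and 145 CPM after DC-depleted pIUT in maternal cells, and at 599, 14623, 1213 and 240 CPM in recipient cells. Chil3 made up 50.03% of the counts of the 10 genes in the maternal uninjected library and between 1.35% and 4.88% in the other 7.

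Cd177 encodes a surface glycoprotein of neutrophils that is stored in secondary granules. It was at 111, 3598, 45.4 and 34.1 CPM in maternal cells (uninjected, mIUT, pIUT, DC-depleted pIUT) and at 203, 6987, 1274 and 81.6 CPM in recipient cells. The DC-depleted pIUT library was thus the lowest of its cell type for Cd177 in both, although in maternal cells its order with pIUT turned with upper-quartile factors.

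The 2 matrix metalloproteinases belong to the later steps, Mmp8 (neutrophil collagenase) to secondary granules and Mmp9 (gelatinase B) to gelatinase granules. Mmp8 was at 122, 5243, 158 and 16.8 CPM in maternal cells and at 592, 10768, 1153 and 67.0 CPM in recipient cells. Mmp9 was at 107, 2357, 425 and 7.90 CPM in maternal cells and at 954, 5825, 1358 and 41.8 CPM in recipient cells. Both were lowest after DC-depleted pIUT in each cell type, and Mmp9 in the maternal library of that group had the fewest counts of any of the 10 genes in any library, 261. It ranked 6865 among genes there, against 174 in the maternal pIUT library. Mmp9 was also the one gene that was higher in maternal cells after pIUT than when uninjected by close to 4-fold.

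S100a8 was at 1027, 41264, 758 and 4681 CPM in maternal cells and at 3129, 66692, 11358 and 2325 CPM in recipient cells. S100a9 was at 952, 47003, 468 and 3085 CPM in maternal cells and at 2967, 73696, 10609 and 2063 CPM in recipient cells. Per kilobase of exon, S100a8 was the highest of the 10 genes in the recipient mIUT library at 67708 CPM per kb, followed by S100a9 at 57756, Ngp at 56181 and Camp at 21634 CPM per kb, with Mmp9 at 1573 CPM per kb. The order was the same for the first 3 in the recipient uninjected library, at 3177, 2325 and 1216 CPM per kb. Exon length here covers all annotated exons of a gene, and the order of close values, such as S100a9 and Ngp in recipient mIUT, depends on it. After DC-depleted pIUT the maternal order became S100a8 (4752 CPM per kb), S100a9 (2418), Camp (2379), Ngp (365) and at the end Mmp9 (2.13 CPM per kb).

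**Figure D2:**
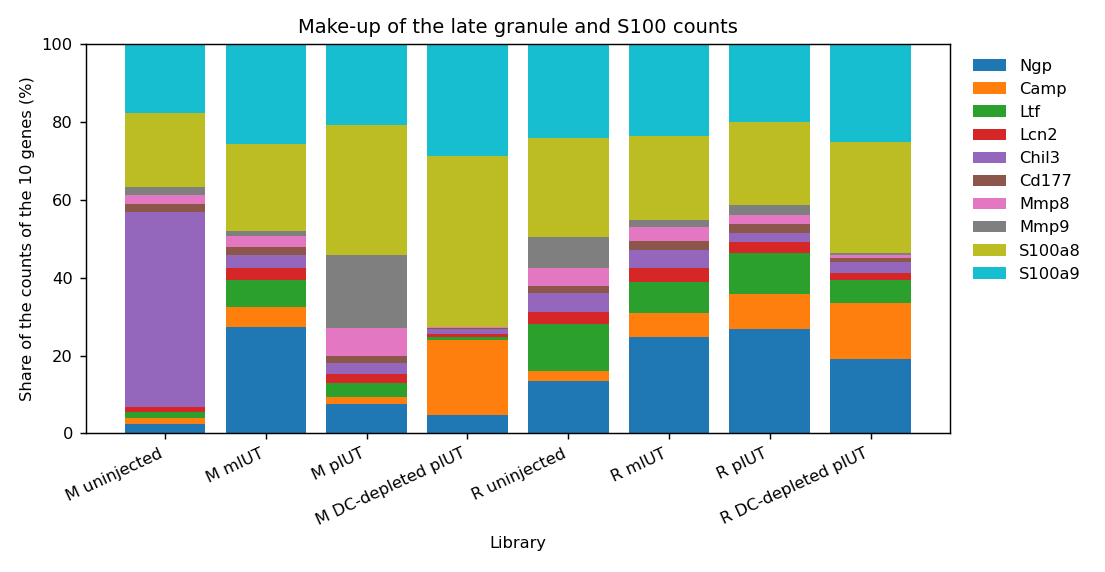
Share of each gene in the summed counts of the 10 genes, as percent, for each library. Chil3 is 50.03% of the maternal uninjected library, and S100a8 and S100a9 together are 72.6% of the maternal DC-depleted pIUT library.

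Together the 10 genes took 0.543% of all counts in uninjected maternal cells (95% Wilson interval 0.541% to 0.546%), 16.0% after mIUT, 0.290% after pIUT and 0.916% after DC-depleted pIUT. In recipient cells they took 1.24%, 21.4%, 5.99% and 1.08%. The intervals, which cover counting error only, were narrower than the differences between libraries. S100a8 and S100a9 held from 36.8% of the 10 genes' counts (maternal uninjected) to 72.6% (maternal DC-depleted pIUT), and from 41.4% to 53.6% in the recipient libraries.

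The first question was what IUT with maternal donor cells left in the 2 cell types. In maternal cells, 9 of the 10 genes were at least 4-fold higher after mIUT than in the uninjected library, where 17.8% of the 14404 genes tested were that much higher, and 0 were lower (36.4%). Ngp was 379-fold higher (log2 fold change 8.57), Ltf 174-fold (7.44), Camp 109-fold (6.77) and Lcn2 75.2-fold (6.23). S100a9, Mmp8, S100a8, Cd177 and Mmp9 followed, from 49.3-fold down to 22.1-fold. Chil3 was 2.23-fold higher (1.16). The median of the 10 was 5.53 and that of all genes tested was −0.60. The maternal mIUT library stands apart, so the recipient side is set beside it.

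In recipient cells all 10 were at least 4-fold higher after mIUT, against 45.0% of 14404 genes tested, and 0 were lower (17.6%). The median was 4.62 beside 1.21 over all genes tested, and relative to that median Mmp9 was under 4-fold. Camp was 61.7-fold higher (5.95), Ngp 46.2-fold (5.53) and Cd177 34.5-fold (5.11), and Mmp9 was the least changed, 6.10-fold (2.61). This comparison uses the recipient uninjected library, which also stands apart. Recipient pIUT over recipient mIUT uses neither such library, and there 9 of the 10 genes were at least 4-fold lower in pIUT, against 13.9% of genes tested, and 0 were higher (19.9%). With library size alone setting the scale, 4 of the 10 were at least 4-fold lower. Chil3 differed most (12.1-fold, −3.59) and Camp was just short of the threshold (3.96-fold, −1.98). Of the other lists, 6 of 8 erythroid, 8 of 10 macrophage and 5 of 6 T cell markers were at least 4-fold higher in pIUT, and their part was not tested.

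Among 20 other genes of late granules and neutrophil maturation, 17 were at least 4-fold higher after mIUT in maternal cells (median 3.89) and 15 in recipient cells (median 3.53), with 0 lower in either. Anxa1, which encodes annexin A1 of gelatinase granules, was higher by 5.69 on the log2 scale in maternal cells and by 4.35 in recipient cells, and Ly6g, the neutrophil surface antigen, by 5.60 and 5.41. The 7 primary granule genes are set beside them as genes of the earlier stage. In maternal cells 7 of 7 were at least 4-fold higher after mIUT, Mpo (myeloperoxidase) by 12.37. In recipient cells 0 were higher and 2 were lower, with Mpo at −2.14 and Elane (neutrophil elastase) at −2.19, in the libraries where Ngp and Camp were higher. Monocyte markers summed to 1396 CPM in maternal and 1912 CPM in recipient cells after mIUT, beside 1065 and 1461 CPM when uninjected, but single markers went both ways, with 2 of 8 at least 4-fold higher and 2 lower in maternal cells (median −0.02) and 2 of 7 higher and 3 lower in recipient cells (median −1.18). The 10 macrophage markers summed to 20.7 CPM in recipient cells after mIUT and 3924 CPM when uninjected. The 8 erythroid markers summed to 79.7 CPM in recipient cells after mIUT and to 50397 CPM when uninjected, and in maternal cells to 8038 and 37150 CPM. The 6 B cell markers summed to 307 CPM in maternal cells after mIUT and 6824 CPM when uninjected, with Ms4a1, Pax5 and Cd22 at 3 counts or fewer after mIUT. The part of these cell types in the result was not tested.

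The second question was what differed with paternal donor cells. In maternal cells after pIUT, 0 of the 10 genes were at least 4-fold higher than in the uninjected library (24.0% of genes tested were) and 1, Chil3, was lower (23.7%). Chil3 was 44.7-fold lower (−5.48). Mmp9 was 3.98-fold higher (1.99), which passed 4-fold when library size alone or DESeq2 size factors set the scale. The median of the 10 was −0.55, beside 0.05 over all genes. Camp (−1.12), Cd177 (−1.30) and S100a9 (−1.02) were lower by less than 4-fold, and Ngp (0.37), Ltf (0.23) and Mmp8 (0.38) were near the uninjected level. All 6 primary granule genes tested were at least 4-fold lower (median −5.18), a bound, since each was at 3 counts or fewer after pIUT. In the same libraries 6 of 6 B cell markers (median −7.28), 6 of 6 T cell markers (−3.86) and 6 of 8 monocyte markers (−4.02) were at least 4-fold lower. Of the monocyte markers, 1 was higher. The part of these cell types in the result was not tested.

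Set against maternal mIUT, all 10 genes were at least 4-fold lower in maternal pIUT, where 19.4% of genes tested were, and 0 were higher (36.9%). Ngp was 293-fold lower (−8.20), Camp 237-fold (−7.89) and Mmp9 5.54-fold (−2.47), the smallest difference, which was under 4-fold with library size alone. The 20 other late genes had 19 at least 4-fold lower. All 7 primary granule genes were at least 4-fold lower (median −12.09), a bound, since each was at 3 counts or fewer in maternal pIUT. Of the other cell types, 8 of 8 erythroid markers were at least 4-fold higher and 5 of 7 monocyte markers lower, and their part was not tested. This contrast rests on the maternal mIUT library and shares it and the maternal pIUT library with comparisons above.

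The recipient side of this question again rests on the recipient uninjected library, which stands apart. Recipient cells after pIUT had 4 of the 10 genes at least 4-fold higher than uninjected recipient cells (45.3% of genes tested were) and 0 lower (13.2%). The 4 were Camp (15.6-fold, 3.96), Ngp (8.54-fold, 3.09), Cd177 (6.29-fold, 2.65) and Lcn2 (4.18-fold, 2.06), the last of which was under 4-fold with DESeq2 size factors or upper-quartile factors. Ltf, S100a8 and S100a9 were between 3.58-fold and 3.74-fold higher, and Mmp9 1.42-fold. The median of the 10 was 1.88 and that of all genes tested 1.35, and relative to that median 1 of the 10, Camp, was at least 4-fold higher while Chil3, Mmp8 and Mmp9 turned negative. With library size alone, 7 of the 10 were at least 4-fold higher. Primary granule genes were lower in this comparison, with 1 higher and 5 lower of 7 and a median of −2.71. Of other cell types, 6 of 6 hepatocyte markers tested (median −8.53), 5 of 8 erythroid markers (−2.99) and 6 of 10 macrophage markers (−3.68) were at least 4-fold lower, and 4 of 6 T cell markers (2.31) and 6 of 9 eosinophil and mast cell markers (6.17) were higher. Some lists split, with the other 4 macrophage markers and 1 erythroid marker at least 4-fold higher and 1 eosinophil and mast cell marker lower. Their part in the result was not tested.

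The third question was what differed when maternal DC had been depleted before pIUT. It compares DC-depleted pIUT with DC control pIUT, and uses neither of the libraries that stand apart. In recipient cells all 10 genes were at least 4-fold lower (6.91% of the 17219 genes tested were) and 0 were higher (14.3%). Mmp9 was 32.4-fold lower (−5.02), Mmp8 17.2-fold (−4.10), Cd177 15.6-fold (−3.96), Lcn2 11.5-fold (−3.53) and Ltf 11.5-fold (−3.52). Ngp was 9.07-fold lower (−3.18), Chil3 5.05-fold (−2.34), S100a9 5.14-fold (−2.36), S100a8 4.89-fold (−2.29) and Camp 4.06-fold (−2.02). Camp passed 4-fold with TMM scaling but not with library size alone, DESeq2 size factors or TMM factors computed without the 10 genes and the globins. The median was −3.35 beside 0.10 over all genes.

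Other neutrophil genes and genes of earlier cells were set beside the 10 in the same pair of recipient libraries. Of the 20 other late genes, 15 were at least 4-fold lower and 0 higher (median −2.86), Retnlg at −5.14 and Ly6g at −4.89. Of the 7 primary granule genes, 5 were at least 4-fold higher and 0 lower (median 4.01), with Mpo at 4.65 and Ctsg (cathepsin G) at 4.62. Mpo was at 416 CPM after pIUT and at 10458 CPM after DC-depleted pIUT. Cebpa, a regulator of early granulocyte commitment, was higher by 2.72, whereas Cebpe, the regulator of secondary granule genes, was at −1.35. Monocyte markers summed to 810 CPM after pIUT and 1222 CPM after DC-depleted pIUT, macrophage markers to 245 and 1072 CPM, and T cell markers to 3362 and 824 CPM, with 4 of 6 at least 4-fold lower. Hepatocyte markers summed to 72.4 and 1124 CPM, with 7 of 7 at least 4-fold higher after DC-depleted pIUT (median 8.52). Erythroid markers summed to 14557 and 9632 CPM, a sum set by the globins, while 4 of 8 were at least 4-fold higher and 0 lower (median 2.16). The part of these cell types in the result was not tested.

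In maternal cells the same pair of treatments gave 3 of the 10 genes at least 4-fold higher (24.9% of 15663 genes tested) and 2 lower (28.2%), with a median of 0.87 beside −0.07 over all genes. Camp was 52.4-fold higher (5.71), S100a9 6.59-fold (2.72) and S100a8 6.17-fold (2.63). Mmp9 was 53.8-fold lower (−5.75) and Mmp8 9.40-fold lower (−3.23). Ngp (1.55) and Chil3 (1.27) were higher by less than 4-fold. Ltf (−0.15), Lcn2 (0.47) and Cd177 (−0.41) lay within 1 unit of zero and each changed sign under at least 1 other scaling. Against the maternal uninjected library, Camp was 24.1-fold (4.59) and S100a8 4.56-fold (2.19) higher, while Chil3 was 18.6-fold, Mmp9 13.5-fold and Mmp8 7.25-fold lower. That is 2 of 10 at least 4-fold higher (23.5% of genes tested) and 3 lower (26.1%). S100a8 was under 4-fold there when library size alone set the scale, and with upper-quartile factors Ngp and S100a9 also passed 4-fold, which makes 4 of 10. In the same libraries 6 of 6 B cell markers and 7 of 8 monocyte markers were at least 4-fold lower and 6 of 7 primary granule genes higher, and their part was not tested.

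The 20 other late genes had 3 higher and 7 lower of the 19 tested in maternal cells (median 0.05), beside 24.9% and 28.2% of all genes. Cxcr2, the chemokine receptor of mature neutrophils, was at −5.01, Adam8 at −8.26 and Itgam (CD11b) at −5.04, whereas Pglyrp1 (2.02) and Olfm4 (2.08), both secondary granule products, were higher, as was Itgb2l, whose maternal pIUT library was at 0 counts, by at least 5.88 on the log2 scale against 3 counts. Of the 7 primary granule genes, Mpo had 3 counts and the other 6 had 0 in the maternal pIUT library, and in DC-depleted pIUT Elane was at least 11.45 and Prtn3 (proteinase 3) at least 10.36 higher on the log2 scale against 3 counts. Csf3r, which encodes the receptor for G-CSF, had 0 counts in the maternal DC-depleted pIUT library and was at 170 CPM in maternal pIUT, a log2 fold change of −10.82 or lower when 0 is taken as 3 counts. Monocyte markers summed to 1094 CPM in maternal pIUT and 76.0 CPM in maternal DC-depleted pIUT, with Cd14 alone at 1012 and 5.24 CPM, and 3 of the 7 tested were at least 4-fold higher and 2 lower (median 0.05). Of the other lists, macrophage markers summed to 83.2 and 280 CPM and erythroid markers to 50572 and 60214 CPM, and Ace among the monocyte markers was at 3 counts or fewer in both libraries. Their part in the result was not tested.

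**Figure D3:**
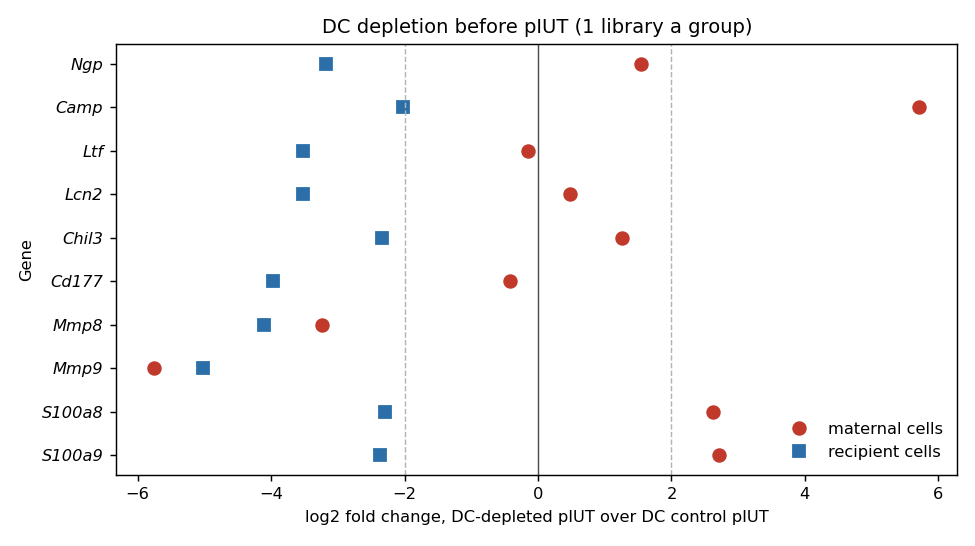
log2 fold change of the 10 genes for DC-depleted pIUT over DC control pIUT in maternal and in recipient cells, with dashed lines at 4-fold. All 10 recipient values lie at or below −2.02, while maternal values run from −5.75 for Mmp9 to 5.71 for Camp.

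Against uninjected recipient cells, recipient cells after DC-depleted pIUT had 0 of the 10 genes at least 4-fold higher (46.4% of genes tested) and 2 lower (10.9%), Mmp9 at −4.51 and Mmp8 at −3.14. Camp was higher by 1.94 and the S100 genes were at −0.43 and −0.52. The median of the 10 was −1.32 beside 1.66 over all genes, and 8 of the 10 were at least 4-fold lower once values were taken relative to that median. This comparison rests on the recipient uninjected library, and shares it with the comparisons of mIUT and pIUT above. B cell markers were at least 4-fold lower in 4 of 6 and higher in 0. Erythroid markers were lower in 5 of 8 and higher in 1, and macrophage markers were lower in 5 of 10 and higher in 4. Eosinophil and mast cell markers were higher in 6 of 9 and lower in 2, while their sum was 5453 CPM when uninjected and 1981 CPM after DC-depleted pIUT. The part of these cell types was not tested.

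Within a library, ratios of 2 genes need no scaling between libraries, and they were chosen after values were seen. S100a8 over S100a9 stayed between 0.878 and 1.62 over the 8 libraries. Camp over Ltf, in contrast, was 1.18, 0.739 and 0.465 in the maternal uninjected, mIUT and pIUT libraries and 27.0 (95% counting interval 25.96 to 28.11) after DC-depleted pIUT. In recipient cells Camp over Ltf was 0.206, 0.750, 0.858 and 2.43, again highest after DC-depleted pIUT. Mmp9 over Ngp was 0.808, 0.0470, 2.49 and 0.0158 in maternal cells and 0.573, 0.0757, 0.0955 and 0.0267 in recipient cells, so it was lowest after DC-depleted pIUT in both. Ngp over Camp was lowest in the same libraries, 0.241 in maternal and 1.33 in recipient cells, beside 1.54 to 5.44 in the other 6. Chil3 over Ngp was 20.4 in uninjected maternal cells and at most 0.360 in the other 7 libraries.

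**Figure D4:**
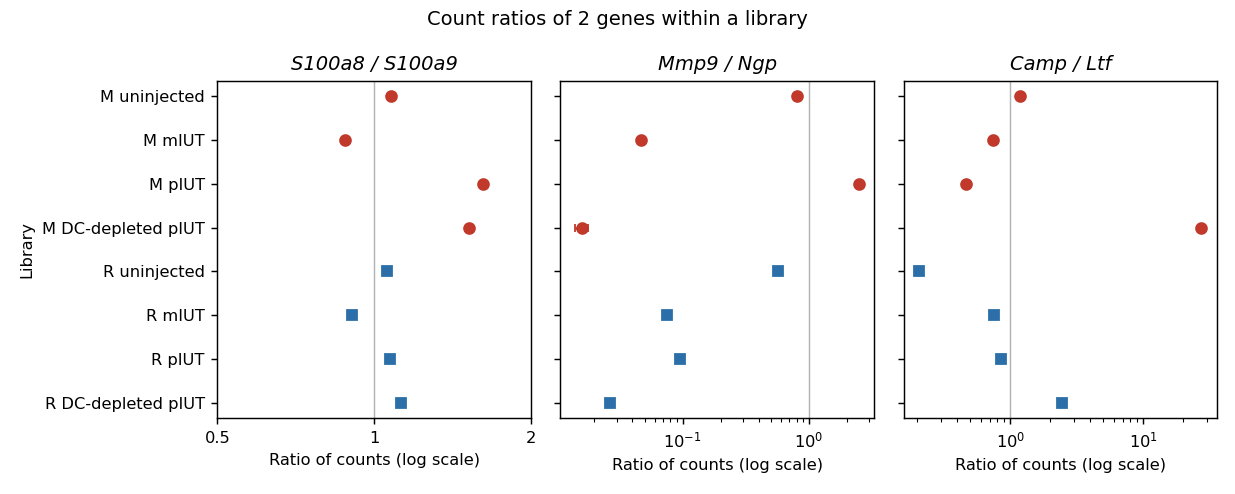
Within-library ratios of counts for S100a8 over S100a9, Camp over Ltf and Mmp9 over Ngp (log axis), with 1 point for each library. S100a8 over S100a9 stays between 0.878 and 1.62, and Camp over Ltf reaches 27.0 in maternal DC-depleted pIUT.

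Ngp counts were also set over those of Mpo, a gene of the preceding granule stage. In uninjected maternal cells, where Mpo had 8 counts, it was 643 (95% counting interval 326 to 1490). After mIUT the maternal ratio was 45.3, and after DC depletion and pIUT it was 2.37. In recipient cells it was 0.380 when uninjected, 77.1 after mIUT, 34.2 after pIUT and 0.150 after DC-depleted pIUT. In maternal pIUT, where Mpo had 3 counts and was not taken as detected, it was 2881 (95% counting interval 986 to 13975). The summed level of the 10 genes and that of the 7 primary granule genes did not follow the same order of libraries. Recipient DC-depleted pIUT had the highest primary granule sum of all 8, 14770 CPM, and a sum of 8180 CPM over the 10 genes, while recipient mIUT had 2645 and 310359 CPM.

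**Figure D5:**
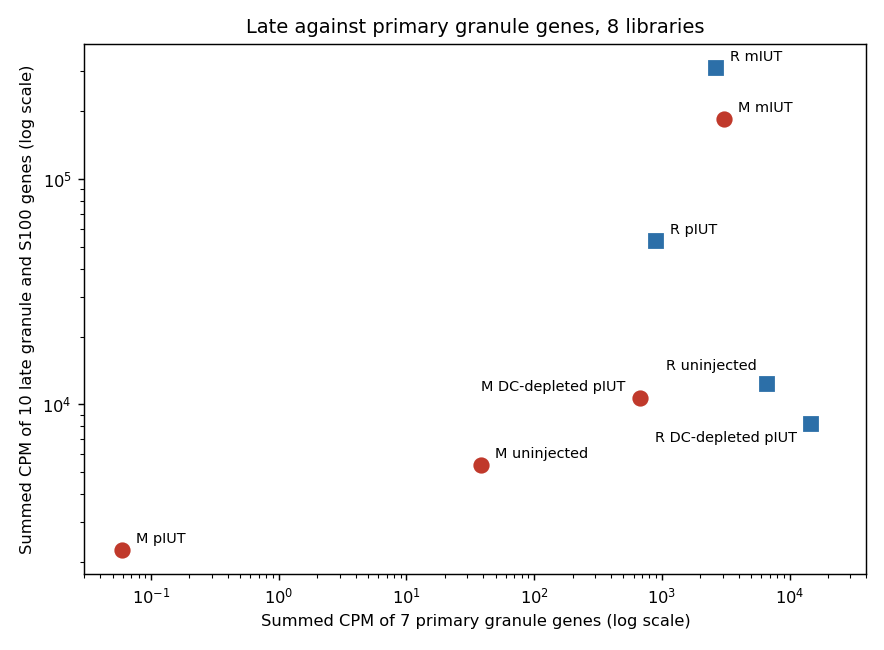
Summed CPM of the 10 late granule and S100 genes against summed CPM of 7 primary granule genes (both axes log), 1 point for each library, M for maternal and R for recipient. The recipient DC-depleted pIUT library lies furthest right, at 14770 CPM, and lowest of the recipient libraries on the other axis, at 8180 CPM.

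The fourth question was how maternal and recipient cells of the same pups compared. When uninjected, 5 of the 10 genes were at least 4-fold higher in recipient cells (15.0% of genes tested) and 1 was lower (41.2%). Ltf was 20.4-fold higher (4.35), Ngp 12.6-fold (3.66) and Mmp9 8.94-fold (3.16), and Chil3 was lower, at −2.17. Relative to the median of all genes, −0.79, 8 were higher and 0 lower by 4-fold. After mIUT, 0 of the 10 were 4-fold higher (35.9%) or lower (13.4%), with all values from 0.62 (Ngp) to 1.31 (Mmp9) beside a median of 0.66 over all genes. Ngp and S100a9 turned negative relative to that median. Both comparisons rest on a library that stands apart. When uninjected, 7 of 7 primary granule genes and 5 of 6 hepatocyte markers were at least 4-fold higher in recipient cells. After mIUT, 5 of 7 hepatocyte markers were at least 4-fold lower and 1 was higher, and 5 of 7 erythroid markers tested were lower and 2 were higher. Their part in the result was not tested.

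After pIUT, 9 of the 10 genes were at least 4-fold higher in recipient than in maternal cells (24.8%) and 0 lower (19.0%). Camp was 120-fold higher (6.91), Ngp 83.2-fold (6.38) and Ltf 65.2-fold (6.03), and Mmp9 3.19-fold (1.67). In the same libraries 7 of 7 primary granule genes, 6 of 6 T cell markers and 7 of 9 eosinophil and mast cell markers were at least 4-fold higher in recipient cells, and 5 of 6 hepatocyte markers and 5 of 8 erythroid markers were lower. Their part was not tested. After DC-depleted pIUT, 2 of the 10, Ltf (6.29-fold, 2.65) and Mmp9 (5.29-fold, 2.40), were at least 4-fold higher in recipient cells (28.0%) and 0 lower (9.6%). Camp was at −0.82, S100a8 at −1.01 and S100a9 at −0.58, so these 3 were higher in maternal cells. With upper-quartile factors 0 of the 10 were at least 4-fold higher in recipient cells, and with library size alone 4 were. S100a9 changed sign when library size alone set the scale. In these libraries 7 of 8 monocyte markers and 8 of 9 eosinophil and mast cell markers were at least 4-fold higher in recipient cells and 7 of 8 erythroid markers lower, and their part was not tested.

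Of 12 regulators of the granule genes, 4 were at least 4-fold higher and 1 lower after mIUT in maternal cells (10 tested), and 6 higher and 2 lower in recipient cells (11 tested). Over all genes tested, 17.8% were higher and 36.4% lower in maternal cells, and 45.0% and 17.6% in recipient cells. For DC-depleted pIUT over pIUT, 1 was higher and 4 were lower of 10 in maternal cells (24.9% and 28.2% over all genes), and 1 higher and 0 lower of 11 in recipient cells (14.3% and 6.91%). Cebpe was at 6.27, 172, 9.85 and 8.96 CPM in maternal cells (uninjected, mIUT, pIUT, DC-depleted pIUT) and at 27.5, 232, 65.2 and 25.5 CPM in recipient cells, highest after mIUT in both. Spi1, which encodes PU.1, was at 173, 739, 61.0 and 12.4 CPM in maternal cells and at 218, 1233, 193 and 132 CPM in recipient cells, likewise highest after mIUT. Ngp over Cebpe counts ran from 17.4 in maternal pIUT to 332 in recipient mIUT. Among 10 receptors and inhibitors of the products, 2 were at least 4-fold higher and 2 lower after mIUT in maternal cells (8 tested), and 3 higher and 2 lower in recipient cells (7 tested), beside the same shares over all genes as for the regulators. Fpr2, the formyl peptide receptor that the cathelicidin peptide engages, was at 418 CPM in maternal and 885 CPM in recipient mIUT, and at 3.69 and 11.5 CPM after DC-depleted pIUT. Tlr4, a receptor for S100a8 and S100a9, was at 77.0 CPM in maternal and 55.8 CPM in recipient mIUT, and had 0 counts in the recipient uninjected library. Csf3, which encodes G-CSF, and Timp1, which encodes the inhibitor of Mmp9, had 0 counts in all 8 libraries. Timp2 was measured, and Mmp9 over Timp2 counts ran from 0.377 in the maternal and 0.565 in the recipient library after DC-depleted pIUT to 12.0 in maternal pIUT.

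Other lists were summed in the same libraries. T cell markers summed to between 107 and 1673 CPM in maternal cells and between 453 and 3362 CPM in recipient cells. Eosinophil and mast cell markers summed to between 31.6 and 150 CPM in maternal cells, where Siglecf was at 3 counts or fewer in the uninjected, mIUT and DC-depleted pIUT libraries, and to between 395 and 5453 CPM in recipient cells. The highest sum was that of the recipient uninjected library, in which 6 of the 9 were at 3 counts or fewer, and the lowest that of recipient mIUT, in which 5 of the 8 tested were at least 4-fold higher than uninjected and 3 lower. Hepatocyte markers summed to 4325 CPM in maternal mIUT and 5177 CPM in recipient uninjected cells, the 2 libraries that stand apart, and to at most 1124 CPM in the other 6. The part of these cells in the levels of the 10 genes was not tested.

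Over the 8 libraries the genes with the pattern most like the mean of the 10 were Anxa1 (Pearson r of log2(CPM + 1) 0.989), Ly6g (0.983), Glrx (0.980), Ceacam10 (0.980) and Agpat2 (0.980), out of 8508 genes ranked. The maternal and recipient library of a group come from the same pool of pups and all 8 share 1 scaling, and the values describe these libraries only. Among the 10 genes themselves, r was lowest between Camp and Mmp9 (0.37) and was 0.96 between Mmp8 and Mmp9 and 0.99 between Lcn2 and Cd177. Without the recipient uninjected and maternal mIUT libraries, the 5 genes most like the mean of the 10 over 6 libraries were Ifit1bl2 (0.995), Actr2 (0.987), Anxa1 (0.986), Cfap410 (0.986) and Asprv1 (0.986), so that 1 of the 5, Anxa1, was on both lists, and Ly6g was at 0.984. By Spearman's rho over the 8 libraries they were Agpat2, Pglyrp1, Lrch4, Mrgpra2b and Rac1, with Agpat2 on both lists.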

How the data were processed

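Total RNA of sorted mononuclear cells was sequenced in 8 pooled libraries, 1 for each of 2 cell origins and 4 treatments, named by the sample labels. The authors deposited a table of estimated counts per gene, not normalized, whose fractional values are those that salmon writes within the nf-core pipeline (GRCm39, GENCODE M26), while the study's methods name featureCounts. The submitters' processing notes also list bcl2fastq and StringTie. Whether strand was used in counting is not given in the sources used here. The deposited MiXCR clonotype tables were not used here.

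All 8 columns of the table were used and 0 were left out. The fractional values were made whole by rounding. Of 52784 genes, 25066 had a count in at least 1 library. Scaling used TMM factors (edgeR 4.0.16, R 4.3.3). The log2 fold change was that of the exact test of edgeR with the study's dispersion of 0.4 and the default prior count of 0.125. With no replicates, a gene was called at 4-fold and no p-value was computed. Genes with at least 10 counts in either library of a comparison were tested. A library at 3 counts or fewer was set to 3 counts and gives a bound. CPM is a count over the TMM-scaled library size, and CPM per kb divides it by the joint length of all annotated exons of the gene. The calculation was tested on simulated data. Intervals are at the 95% level, cover counting error only, and reads carry no molecular identifiers. GENCODE for GRCm39 gave positions, names and exon lengths and matched 97.99% of gene identifiers.

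The 10 genes, the other gene lists, the motifs and the comparisons were chosen with earlier results of these data known. Text names all 10 genes, the highest and lowest past 4-fold or those a result turns on in each other list, and the 5 genes outside the 10 with the highest Pearson r with their mean, among genes with a mean of at least 10 CPM. Marker lists of 7 other cell types (monocytes, macrophages, eosinophils and mast cells, B cells, T cells, erythroid cells and hepatocytes) were summed in each library. Alternatives were library size, DESeq2 1.42.0 size factors, upper-quartile factors, centring on the median of all genes, 2-fold and 8-fold thresholds, other prior counts and count filters. A planned comparison of protein sequences was not run, and no protein table was used here. Tables and plots were made in Python 3.11.15 with matplotlib 3.10.9, pandas 2.3.3, numpy 2.4.6 and scipy 1.17.1.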

Additional observations from a re-analysis of the deposited data

Results flagged for a closer look

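Of the 10 genes, 3 moved past 4-fold in opposite directions in maternal and recipient cells in the comparison of DC-depleted pIUT with DC control pIUT. Of the 14215 genes tested in both, 1.33% were higher in maternal and lower in recipient cells by 4-fold, as these 3 were, and 4.46% the reverse. On the log2 scale Camp was at 5.71 in maternal cells and at −2.02 in recipient cells, and the recipient value was under 4-fold with library size alone, DESeq2 size factors or TMM factors without the 10 genes and the globins, which leaves 2 genes. S100a8 had 2.63 in maternal cells and −2.29 in recipient cells. S100a9 had 2.72 in maternal cells and −2.36 in recipient cells. Each value rests on 1 library against 1, and the difference between the cell types was not tested.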

How the results depend on the processing

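Prior counts of 2 and 5 and both other count filters left each of the 28 counts of genes past 4-fold within 1.5 times of the reported count. Counts that moved further are given here for the 10 genes. For maternal pIUT over uninjected, 1 gene was higher with library size alone, DESeq2 size factors, a 2-fold threshold or TMM factors without the 10 genes and the globins, and 4 were lower at 2-fold. For maternal DC-depleted pIUT over uninjected, 1 was higher with library size alone or at 8-fold, and 4 with upper-quartile factors or at 2-fold. For maternal DC-depleted pIUT over pIUT, 5 were higher with upper-quartile factors or at 2-fold and 1 at 8-fold. For recipient pIUT over uninjected, 7 were higher with library size alone, 1 when centred, 8 at 2-fold and 2 at 8-fold. For recipient DC-depleted pIUT over uninjected, 1 was higher with library size alone, the reduced TMM factors or a 2-fold threshold, and 8 were lower when centred and 6 at 2-fold. For recipient DC-depleted pIUT over pIUT, 6 were lower at 8-fold. For recipient pIUT over mIUT, 4 were lower with library size alone and 2 at 8-fold. Between uninjected recipient and maternal cells, 8 were higher when centred or at 2-fold, 3 at 8-fold, and 0 were lower when centred or at 8-fold. Between the mIUT libraries 4 were higher at 2-fold. Between the DC-depleted pIUT libraries 4 were higher with library size alone, 5 at 2-fold, and 0 with upper-quartile factors, when centred or at 8-fold, and 1 was lower at 2-fold. The thresholds change the counts by construction, and for the scalings the cause was not tested. The reduced TMM factors, the ratios within a library and the setting aside of 2 libraries were chosen after values were seen. Each comparison sets 1 library against 1, and a paired fit of cell origin with treatment as a block over the 4 treatments was not run. At these depths, 3 counts was the level at or below which no gene was taken as detected.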
